A study of Sus scrofa with 13 samples.

Results

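The genes of the creatine kinase system were examined in heart muscle of pigs after a myocardial infarction, with and without stem cell injection. The set comprised the creatine kinases CKB, CKM and CKMT2, the creatine transporter SLC6A8, the creatine synthesis enzymes GAMT and GATM, and the adenylate kinases AK1, AK3 and AK4. Members were all probe sets whose platform annotation carried 1 of these symbols and no other. Of 9 genes, 6 had such a probe set, namely CKB, CKM, CKMT2, SLC6A8, GAMT and AK3, with 3 probe sets for AK3 and 1 for each of the others. This gave 8 of 23999 probe sets, and 7 of the 8 passed the filter on low values. GATM and AK4 were not analysed here, and AK1, named only together with ACTG1 on a shared probe set, was not used.

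Creatine kinases move a phosphate group between ATP and creatine. The mitochondrial enzyme CKMT2 charges creatine with phosphate from freshly made ATP, and cytosolic CKM dimers at the myofibrils and ion pumps turn phosphocreatine back into ATP. CKB is the brain-type cytosolic subunit, found in smooth muscle, brain and, at lower amounts, in heart. Heart muscle takes up creatine from the blood through SLC6A8, while GATM and GAMT carry out the synthesis steps, mainly in kidney, pancreas and liver. Adenylate kinases exchange phosphate among adenine nucleotides, and AK3 works on GTP and AMP in the mitochondrial matrix.

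The animals were female Sinclair miniswine, 3 months old at surgery, in which diagonal arteries arising from the left anterior descending coronary were permanently tied. A stem cell group of 7 received 50000000 stem cells, named MPCs in the protocols, in 2 ml saline over 5 sites in the border zone of the infarct. A saline group of 6 received 2 ml saline in the same way. All 13 animals thus carried an infarct, and drill biopsies of the heart were taken at month 4. The sources used here do not give the type and origin of the cells beyond that name, or the position of each biopsy relative to the scar. Each animal gave 1 porcine Affymetrix array.

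The values were probe set intensities on a linear scale, compared as log2 intensities, and every difference below is stem cells minus saline. Pairwise correlations of the arrays lay between 0.936 and 0.986, and precision is limited by how many arrays there are. All 14 cardiomyocyte markers that had a probe set passed the filter, led by TNNC1, ACTC1 and TNNT2. No batch is given in the labels. The set was chosen because CKB was low after stem cells while CKM was not, so differences between the groups are given for all members as descriptions, with no test. Across 14399 probe sets tested, limma called 0% at a Benjamini-Hochberg adjusted p under 0.05, so 0 members were called. At an unadjusted p under 0.05 it called 10.5%, 742 probe sets lower and 777 higher.

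CKB had intensities from 118 to 373 in the saline animals, with a median of 157. After stem cells they ran from 54.9 to 122, with a median of 105. The groups overlapped in a single pair: stem cells replicate 1 at 122 lay above saline replicate 1 at 118, and the other 6 stem cell animals were lower than every saline animal. Saline replicates 2 and 6 stood highest at 373 and 266, and stem cells replicate 6 stood lowest at 54.9. The mean log2 intensity was 6.57 ± 0.40 (SD, n = 7) in the stem cell group and 7.52 ± 0.65 (SD, n = 6) in the saline group. The difference was -0.94 ± 0.28 (log2, SE), a 1.92-fold higher level after saline, with a 95% interval of -1.53 to -0.36. It lay between -1.07 and -0.74 with any 1 animal left out. Without both saline replicates 2 and 6, a choice made after seeing the data, it was -0.55 ± 0.23 (SE).

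CKM had intensities of 18700 to 22000 after saline (median 20500) and 19600 to 23600 after stem cells (median 21000). The groups overlapped almost throughout, and stem cells replicates 3 and 6 were the highest animals. Mean log2 intensities were 14.39 ± 0.11 (SD, n = 7) and 14.31 ± 0.089 (SD, n = 6). The difference was 0.07 ± 0.066 (log2, SE), with a 95% interval of -0.069 to 0.21, and 0.05 to 0.09 with any 1 animal left out. CKM was among the steadiest signals on the array: its spread within groups, an SD of 0.098 in log2, was lower than that of all but 0.549% of probe sets tested. Its mean intensity was above 99.8% of non-control probe sets, a range in which array signals can saturate, and this was not tested. The steadiness was not particular to CKM. The cardiomyocyte markers brighter than CKM, namely MYH7, MYL2, TNNT2, TNNC1, ACTC1 and TPM1, had group SDs of 0.051 to 0.13.

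The cytosolic isoforms were also compared as a ratio taken within each array. The log2 ratio of CKB to CKM was lower after stem cells by a difference of -1.015 ± 0.31 (SE). Relative to the saline mean, the ratio ran from -1.93 to -0.63 in the stem cell animals and from -0.71 to 1.03 in the saline animals. The ratio was under the saline mean in all 7 stem cell animals and under every saline animal in 5 of them. Leaving out single animals moved the difference between -1.16 and -0.81. These values follow from the way the set was chosen, and with CKM nearly constant the ratio mostly restates CKB.

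CKMT2, the sarcomeric mitochondrial isoform, had intensities of 11200 to 16100 after saline (median 15650) and 11000 to 16300 after stem cells (median 13400). Saline animals fell into a higher group, replicates 1, 2, 5 and 6 at 15200 to 16100, and a lower pair, replicates 3 and 4 at 12600 and 11200. Of the stem cell animals, 6 of 7 were under the saline mean, and replicate 6 was the highest of all 13 animals. The difference was -0.13 ± 0.11 (log2, SE), with a 95% interval of -0.36 to 0.10. Leaving out saline replicate 4 gave -0.20, and leaving out stem cells replicate 4 gave -0.08.

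**Figure D1:**
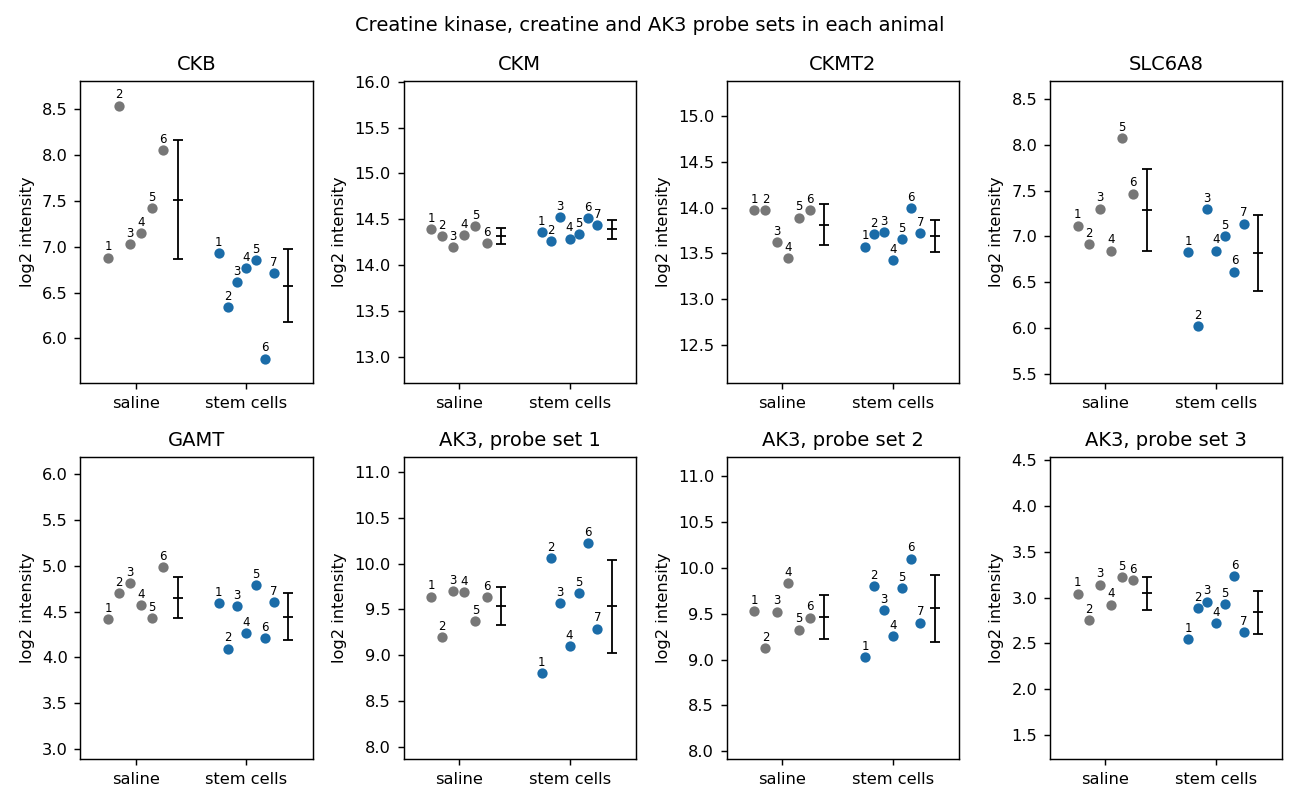
Log2 intensity of the 8 probe sets in each animal, 6 saline (grey) and 7 stem cells (blue), with replicate numbers, on vertical axes of equal length. Bars give the group mean ± SD; CKB shows saline replicates 2 and 6 far above the rest, CKM hardly varies, and AK3 probe sets 1 and 2 spread more after stem cells than after saline.

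SLC6A8, the creatine transporter of the plasma membrane, had intensities of 115 to 269 after saline (median 148.5) and 65 to 157 after stem cells (median 115). Saline replicate 5 was highest at 269, stem cells replicate 2 lowest at 65, and 3 of 7 stem cell animals were lower than every saline animal. Mean log2 intensities were 6.82 ± 0.42 (SD, n = 7) and 7.29 ± 0.45 (SD, n = 6). The difference was -0.47 ± 0.23 (log2, SE), with a 95% interval of -0.97 to 0.033. Leaving out saline replicate 5 gave -0.31, and leaving out stem cells replicate 2 gave -0.33.

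GAMT, which methylates guanidinoacetate to creatine, had low signals on its single probe set. Intensities were 21.4 to 31.7 after saline (median 24.9) and 17.1 to 27.6 after stem cells (median 23.6). The mean log2 intensity over all animals, 4.54, lay above the filter level of 3.36 and above 2.58, which was the top mean of the 17 tag controls, spots without a porcine target. The groups overlapped, with 3 of 7 stem cell animals, replicates 2, 4 and 6, below all saline animals. The difference was -0.21 ± 0.15 (log2, SE), with a 95% interval of -0.52 to 0.10. It was -0.12 with a pseudocount of 16 added to the intensities.

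AK3 was read by 3 probe sets. The brightest had intensities of 588 to 832 after saline (median 796) and 448 to 1200 after stem cells (median 760), and the next in mean intensity 558 to 916 (median 719.5) and 522 to 1100 (median 744). On both, stem cell replicates 2 and 6 were high and replicates 1 and 4 low, so that this group spread on both sides of the saline animals. Their differences were -0.01 ± 0.21 and 0.09 ± 0.18 (log2, SE), and the first changed sign when single animals were left out, from -0.12 to 0.12. The dimmest, called AK3 probe set 3 in the plots, had a mean log2 intensity of 2.94, below the filter, and a difference of -0.21 ± 0.11.

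The AK3 probe sets followed each other across animals. After removal of group means, the first and second correlated at r = 0.94 and rho = 0.95 over 13 animals, with permutation p of 1e-05 each, the smallest that 100000 shuffles within groups can give. The first and the dimmest correlated at r = 0.77 and rho = 0.60 (permutation p of 0.00487 and 0.0428). For both pairs, compared after seeing the data, the adjusted p of r was 2e-05 and 0.00487.

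Of the 8 member probe sets, 6 had a difference below 0, with a median of -0.17. Among all probe sets tested 47.2% were below 0, with a median of 0.017. The groups did not overlap on 0 of 8 member probe sets, against 0.278% of probe sets tested. Repeating the quantile normalization left 5 of 8 below 0.

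Other genes of phosphoryl transfer were read from a list chosen by role, covering adenine nucleotide carriers, outer membrane channels, other nucleotide kinases and AMP-handling enzymes. Of 30 symbols listed, 18 had a probe set and 13 were tested. Below 0 were 10 of 13, with a median of -0.09, and 0 were called in either direction. Leaving out stem cells replicate 4 gave 7 of 13 and a median of -0.02, leaving out saline replicate 3 or stem cells replicate 7 gave 10 and 12 of 13 and -0.05 each, and the smooth muscle covariate described below gave 12 of 13 and -0.22. At an unadjusted p under 0.05 there were 3 lower (NME1, NME2 and GUK1) and 0 higher, with GUK1 at a mean log2 intensity of 3.40, little above the filter level, against 5.15% lower and 5.4% higher among all probe sets tested. The other 5, CKMT1A, AK5, AK8, AMPD1 and ADSS, did not pass the filter.

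NME1 and NME2, nucleoside diphosphate kinases that spread phosphate from ATP to other nucleotides, had the lowest values of the list. NME1 intensities were 132 to 316 after saline and 104 to 179 after stem cells, a difference of -0.55 ± 0.22 (log2, SE). NME2 ran from 6750 to 8530 and from 5190 to 8040, a difference of -0.28 ± 0.11. Both genes overlapped between groups. SLC25A5, a carrier that swaps ADP for ATP across the inner mitochondrial membrane, followed at -0.26 ± 0.20.

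SLC25A4, the carrier isoform of heart and skeletal muscle, had intensities of 26600 to 31300 after saline and 24500 to 33600 after stem cells. Its difference was 0.01 ± 0.075 (log2, SE), with the stem cell range enclosing the saline range. SLC25A6, a further isoform, was at 0.01 ± 0.17, and ADSL, an enzyme of purine synthesis and the purine nucleotide cycle, was at 0.02 ± 0.21. The outer membrane channels VDAC1, VDAC2 and VDAC3 lay between -0.06 and -0.03.

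**Figure D2:**
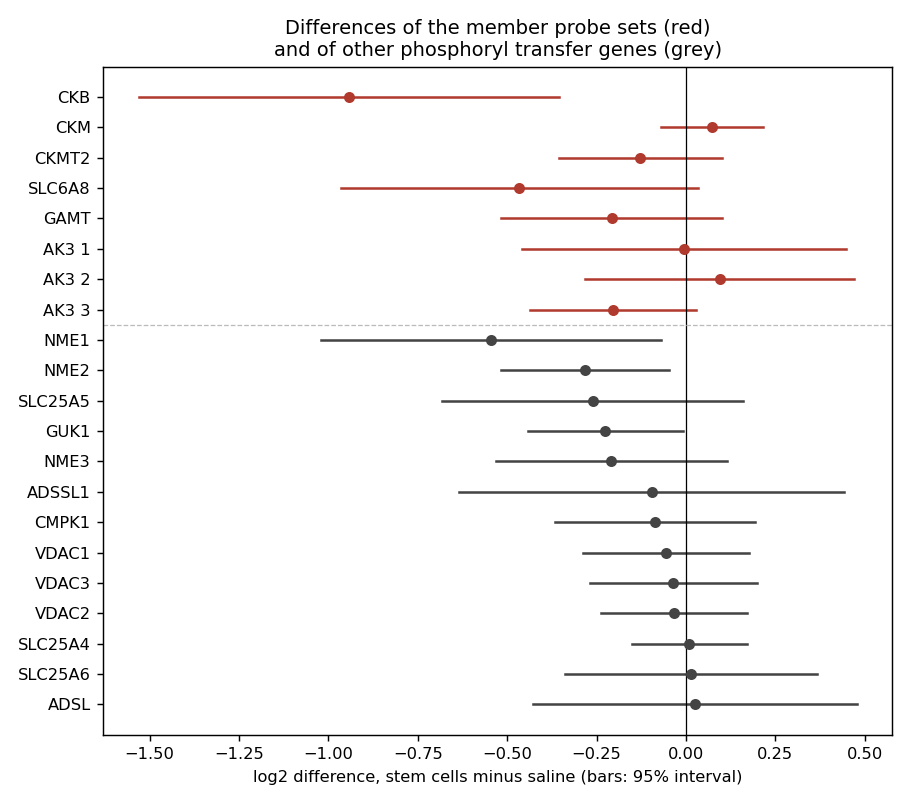
Log2 difference, stem cells minus saline, for the 8 member probe sets (red, AK3 1 to 3 in order of mean intensity) and 13 other phosphoryl transfer genes (grey), with 95% intervals from limma. CKB at -0.94 lies farthest from 0, and the set was chosen because CKB was low and CKM was not. The intervals of CKM, SLC25A4 and the VDAC genes are narrow and include 0.

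Differences between animals of the same group do not depend on the contrast that chose the set, and were tested for 16 pairs. Each gene's deviations from its group mean were correlated over 13 animals, with permutation within groups and Benjamini-Hochberg adjustment over the 16. CKB varied with smooth muscle markers and CKM with cardiomyocyte markers, and these 2 pairs were the ones past the threshold. In tissue RNA, fewer cells of a type and less RNA per cell cannot be told apart.

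CKB was high where smooth muscle markers were high. Its deviations correlated with the mean of 7 markers (ACTA2, TAGLN, CNN1, SMTN, MYL9, PPP1R14A and DES) at r = 0.80 (permutation p of 0.00102, adjusted 0.00816) and rho = 0.83 (permutation p of 0.00198, adjusted 0.0158). The coefficient was r = 0.96 and rho = 0.83 among the 6 saline animals and r = 0.79 and rho = 0.46 among the 7 stem cell animals. The exact permutation p of r was 0.00694 and 0.0373, adjusted to 0.111 and 0.214, so the pair passed in neither group alone. With 1 animal left out it stayed between 0.74 and 0.85. Without the 2 animals farthest from the median of CKB it was r = 0.68 (permutation p of 0.0174, adjusted 0.139), so the pair no longer passed among the 11 animals left. Without saline replicates 2 and 6, r was 0.76 with an adjusted permutation p of 0.119.

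Single smooth muscle markers, examined after seeing this value, did not all move with CKB. TAGLN (transgelin) and CNN1 (calponin), proteins that bind actin in smooth muscle, correlated with CKB at r = 0.74 and r = 0.75, with permutation p of 0.00214 and 0.00477, adjusted to 0.015 and 0.0167 over 7 markers. Their rho values were 0.71 and 0.76, both with an adjusted permutation p of 0.0246. These 2 also spread most among the 7 and so weighed most in their unscaled mean. Their SDs after stem cells and saline were 1.13 and 0.73 for TAGLN and 1.46 and 1.42 for CNN1. The other 5 did not pass, from SMTN at r = -0.19 to MYL9 at r = 0.60. DES, which cardiomyocytes also express, was at r = 0.43, and the mean without DES gave r = 0.83 and rho = 0.83 (permutation p of 0.00053 and 0.00198).

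The mean of the smooth muscle markers was lower after stem cells, with overlapping groups. At an unadjusted p under 0.05 in limma 3 of 7 markers (CNN1, MYL9 and PPP1R14A) were lower, against 5.15% of all probe sets tested, and 0 were called. The list was chosen with earlier results of these data known. The mean log2 intensity ran from 8.14 to 9.50 after stem cells and from 9.02 to 10.00 after saline. Below 0 were 6 of 7 markers, against 47.2% of all probe sets tested, and MYH11, LMOD1 and SYNPO2 had no probe set to read. CNN1 had a difference of -1.54 ± 0.69 (log2, SE), MYL9 -0.88 ± 0.21 and PPP1R14A, whose signal of 3.49 lay little above the filter level, -0.66 ± 0.13, whereas ACTA2 was at 0.08 ± 0.30. With the smooth muscle mean as a covariate, added after seeing the data, the difference of CKB was -0.45 ± 0.23 (SE) in place of -0.94, that of SLC6A8 -0.25 ± 0.26 in place of -0.47 and that of GAMT -0.06 ± 0.16 in place of -0.21. That of CKM stayed at 0.07 ± 0.079, and that of AK3 went from -0.01 to -0.32 ± 0.20. The covariate itself differed by -0.55 between groups. With it 651 of all probe sets tested had an unadjusted p under 0.05 in limma, against 1519 without it. Whether smooth muscle content accounts for the difference of CKB was not tested. With a covariate for cardiomyocyte minus fibroblast markers CKB was at -0.94 ± 0.26. In log2 units both of those marker means differed alike between groups, by 0.11 and 0.10. That covariate could thus hardly move the difference of CKB. Relative to spread they were unlike: SDs were 0.14 (stem cells) and 0.091 (saline) for the cardiomyocyte mean and 0.56 in each group for the fibroblast mean. Of the cardiomyocyte markers, 2 of 14 were below 0.

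**Figure D3:**
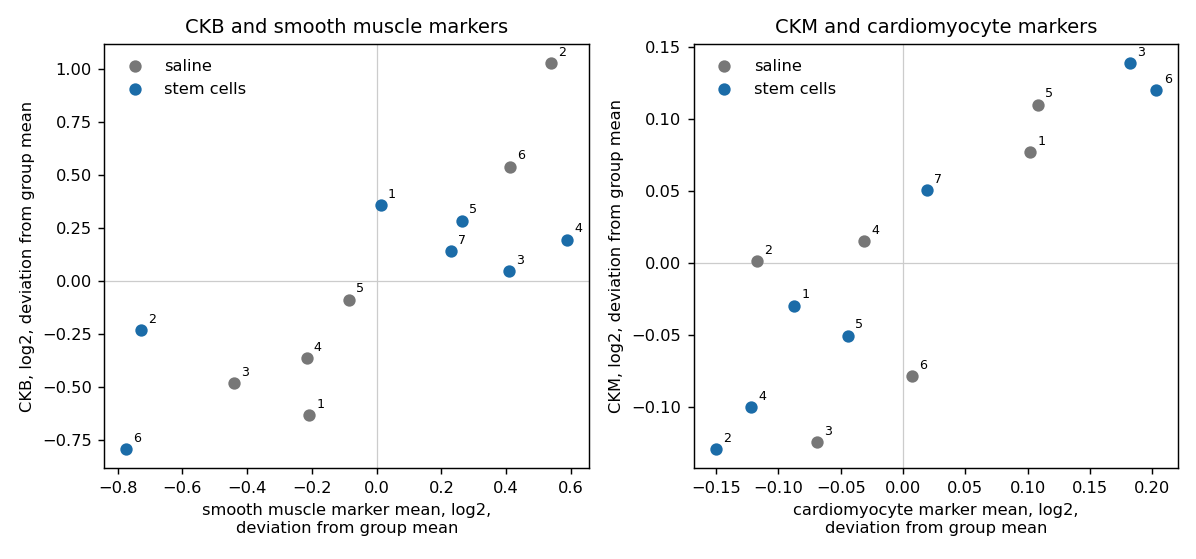
Deviations from the group mean, in log2 units, of CKB against the smooth muscle marker mean (left) and of CKM against the cardiomyocyte marker mean (right) in 6 saline (grey) and 7 stem cell animals (blue), with replicate numbers. The points rise together with r = 0.80 on the left and r = 0.87 on the right; the vertical scale on the right is much smaller.

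CKM followed the cardiomyocyte markers within its narrow range. Over 13 animals the correlation with the mean of 14 markers was r = 0.87 (permutation p of 0.00077, adjusted 0.00816) and rho = 0.86 (permutation p of 0.00116, adjusted 0.0158). It was r = 0.97 and rho = 0.93 among stem cell animals and r = 0.67 and rho = 0.71 among saline animals. The exact permutation p of r was 0.00119 and 0.157, adjusted to 0.019 and 0.641, so the pair passed among stem cell animals only. With 1 animal left out r stayed between 0.83 and 0.91. Without the 2 animals farthest from the median of CKM, r was 0.80 with a permutation p of 0.00584, adjusted to 0.0934, and this pair too no longer passed. The cardiomyocyte mean ran from 13.49 to 13.85 after stem cells and from 13.42 to 13.64 after saline.

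CKMT2 correlated with the cardiomyocyte markers at r = 0.54 and rho = 0.55 (permutation p of 0.0572 and 0.0456, both adjusted above the threshold at 0.229 and 0.208), and passed without saline replicate 2 at r = 0.68 (adjusted permutation p of 0.0461). CKM and CKMT2, both ends of the phosphocreatine route, were at r = 0.47 and rho = 0.50 (permutation p of 0.12 and 0.0821, adjusted 0.32 and 0.263). Both coefficients were positive without passing the test.

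CKB and CKM were at r = -0.25 and rho = -0.28 (permutation p of 0.415 and 0.354, adjusted 0.553 and 0.472). SLC6A8 was at r = 0.15 and rho = 0.26 with CKB (permutation p of 0.661 and 0.411, adjusted 0.814 and 0.506). With CKM it was at r = 0.43 and rho = 0.31 (permutation p of 0.167 and 0.32, adjusted 0.347 and 0.465). None of these 3 pairs passed.

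CKB was at r = 0.60 and rho = 0.58 with the endothelial markers (permutation p of 0.0399 and 0.0521, adjusted 0.213 and 0.208), and passed without saline replicate 5 at r = 0.72 (adjusted permutation p of 0.0401). The other 8 pairs, of CKB, CKM and CKMT2 with marker means, lay between r = -0.47 and r = 0.43, with adjusted permutation p of 0.281 or more. The smooth muscle markers stood at r = -0.02 with CKM and r = -0.11 with CKMT2 (adjusted permutation p of 0.958 and 0.827). For CKMT2 the groups had opposite signs, r = 0.63 and rho = 0.76 within saline (exact permutation p of r 0.15) and r = -0.70 and rho = -0.46 within stem cell animals (exact permutation p of r 0.0714), and the difference between groups was not tested.

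**Figure D4:**
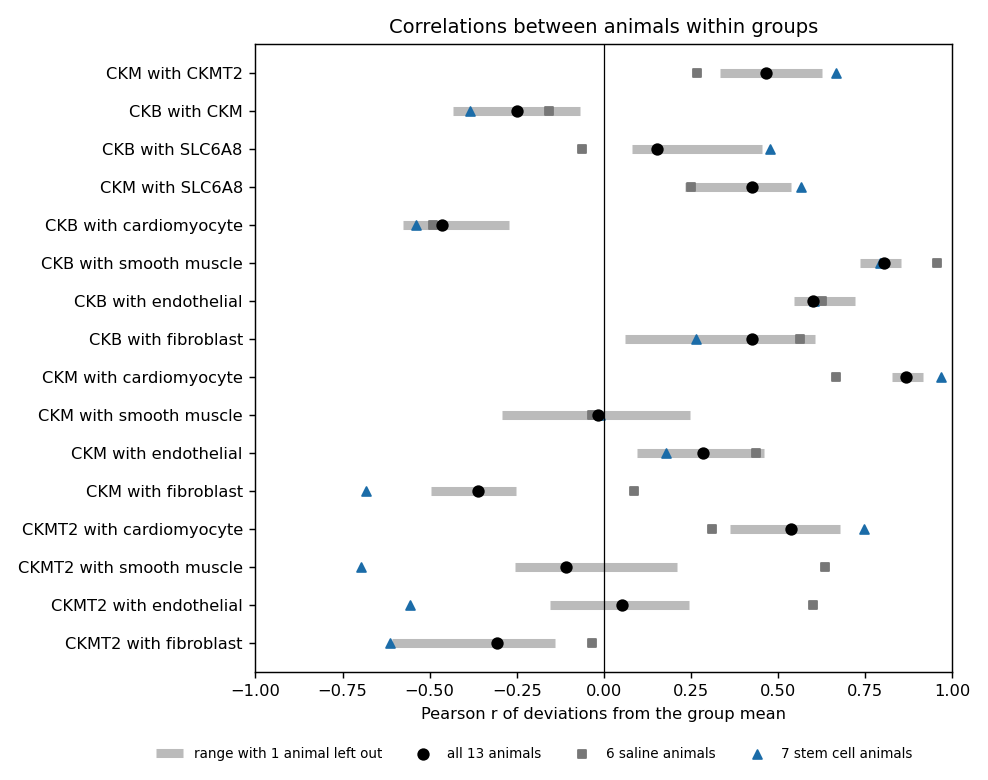
Pearson r of deviations from the group mean for the 16 pairs tested, over all 13 animals (black), within 6 saline animals (grey squares) and within 7 stem cell animals (blue triangles), with the range when 1 animal is left out (grey bars). CKB with smooth muscle markers (r = 0.80) and CKM with cardiomyocyte markers (r = 0.87) stand farthest to the right.

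Markers of other cell types are given here beside CKB. Their part in its difference was not tested, and the cardiomyocyte minus fibroblast covariate above, nearly equal between groups, cannot show it. Macrophage markers had 6 of 7 below 0, as smooth muscle markers did, against 47.2% of all probe sets tested. Their median difference was -0.35, beside -0.34 for the smooth muscle list. AIF1 (-0.65 ± 0.29, log2, SE) and TYROBP (-0.76 ± 0.30) had an unadjusted p under 0.05 in limma, and 0 were called. Among all probe sets tested 5.15% were lower at that p. No fit with a macrophage covariate was run. Macrophage means ran from 5.75 to 6.89 after stem cells and from 6.29 to 7.27 after saline. Endothelial markers had 5 of 8 below 0, with means from 7.30 to 8.27 and from 7.67 to 8.57. Fibroblast markers had 3 of 9 below 0, with means from 8.48 to 9.86 and from 8.41 to 10.00. Of the neural and Schwann cell markers S100B and SOX10 passed the filter, GFAP and NEFL did not, and the mean ran from 4.26 to 4.99 and from 4.52 to 5.61. The red blood cell, fat cell and skeletal muscle lists had 2, 2 and 1 markers above the filter, with differences of their means of 0.17, -0.17 and -0.15. Saline replicate 2, the animal with the highest CKB, also had the highest smooth muscle, fibroblast, macrophage and neural marker means of all 13 animals. The EF1A control signal of the 3' over the 5' end, which rises as RNA degrades, had a log2 ratio of 0.81 ± 0.11 (SD, n = 7) in the stem cell group and 0.95 ± 0.098 (SD, n = 6) in the saline group. With that ratio as a covariate, CKB was at -0.99 ± 0.35 and CKM at 0.02 ± 0.080 (log2, SE).

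Among 6883 other probe sets with a symbol, those closest to CKB in their deviations over 13 animals were CERCAM (r = 0.93), BMP1 (r = 0.86), LOC100519643 (r = 0.85), CAPG (r = 0.84) and CD58 (r = 0.84). CERCAM is a cell adhesion protein, BMP1 a protease that trims procollagen, CAPG an actin-capping protein and CD58 an adhesion ligand of immune cells. CERCAM kept r = 0.95 within saline and r = 0.90 within stem cell animals, and its difference between groups was -0.23 ± 0.12 (log2, SE). Closest to CKM were MYL2 (r = 0.87), SLC25A4 (r = 0.87), GOT2 (r = 0.85), TMX4 (r = 0.84) and CCNY (r = 0.84). MYL2, the ventricular myosin light chain, is also a member of the cardiomyocyte list, SLC25A4 is the nucleotide carrier described above, and GOT2 is the mitochondrial aspartate aminotransferase. These are the highest coefficients of a search over many probe sets and are given as a description.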

How the data were processed

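Total RNA of 13 heart biopsies was hybridised to porcine Affymetrix arrays. The authors deposited linear intensities per probe set, made with GCRMA, per the submitters' processing notes. This method corrects background, normalizes between arrays and summarises probes, so these values cannot show a shift common to most genes. The sources used here do not give its version or settings.

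Of 24123 probe sets deposited, 124 controls were left out, and log2 values were used. By the platform annotation 10069 probe sets had 1 symbol, 198 several and 13732 none. All 6 member symbols matched RefSeq by gene ID. No coordinates are given because no build is stated. Sequences were not used here.

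Probe sets with a mean log2 value above the 40th percentile, 3.36, were fitted in R 4.3.3 with limma 3.58.1 (lmFit, eBayes with a variance trend, group only). P-values were adjusted by Benjamini-Hochberg over 14399 probe sets at 0.05. The fit and the correlation test were tested on simulated data. Correlations used Python 3.11.15, with 100000 permutations within groups for all 13 animals and exact permutation within 1 group. Planned pairs with GATM, AK1 or AK4 were left out.

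Animals are the replicates. Members, lists and tests were chosen with earlier results of these data known. Named genes were all members, the 3 lowest and 3 highest tested genes of the phosphoryl transfer list, SLC25A4, and the 5 probe sets most like CKB and CKM. Where a gene had more than 1 probe set, the brightest on average stood for it. Further genes are named where a count or list is given.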

Additional observations from a re-analysis of the deposited data

How the results depend on the processing

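Limma called 0 probe sets under each other setting run on all animals, and 0 to 1 with 1 animal left out. The value of 1 came without saline replicate 5. The fit with the replicate number as a block left out stem cells replicate 7, which has no saline animal of its number. It called 0 probe sets, and 1371 had an unadjusted p under 0.05, against 1721 without that animal and without the block. CKB was at -0.97 ± 0.34 and CKM at 0.06 ± 0.090, the same differences as without that animal alone. Same-numbered animals correlated at -0.27 to 0.24, and 0 of 6 saline animals matched their own number best, so the numbers were not taken as pairs. The block changed no call.

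Of 16 correlations, 2 passed with all animals and 2 to 3 with 1 animal left out. The number was 1 without saline replicates 2 and 6, 0 within saline alone, 1 within stem cells alone and 0 without the 2 animals farthest from the median. Those settings hold fewer animals. A second quantile normalization, centring, a pseudocount of 16, Spearman's rho and the mean of all probe sets each left 2. The difference of CKB stayed below 0 and that of CKM above 0 under each alternative. The set was chosen on these same arrays because CKB was low and CKM was not. These signs therefore cannot show how firm either difference is. For CKM the interval of the main fit, -0.069 to 0.21, included 0. With the EF1A ratio as a covariate CKM was at 0.02 ± 0.080 (log2, SE). Low signal limits GAMT, GUK1, PPP1R14A and the dimmest AK3 probe set.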

Other observations

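The search for probe sets that vary alike was extended to the other members after the values for CKB and CKM were seen, and is given as a description over 13 animals. SLC6A8 was most like VEGFA, the vascular endothelial growth factor (r = 0.89), and PKIG (r = 0.87). It ran most opposite to GSR, glutathione reductase (r = -0.93), with r = -0.99 within saline and r = -0.88 within stem cell animals. GAMT was most like BCL7C (r = 0.93) and CHID1 (r = 0.89). CKMT2 was most like the chaperone HSP90AA1 (r = 0.87) and DMD, dystrophin (r = 0.85). AK3 was most like the ubiquitin ligase WWP1 (r = 0.94), with r = 0.96 within stem cell and r = 0.75 within saline animals, and PKIA (r = 0.92).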
